A study of Homo sapiens with 8 samples.

Results

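POLR2A, SUPT5H, SUPT6H and CDK12 are 4 genes of transcription elongation, and the RNA of each carried CLIP peaks of the RNA-binding protein RBM45 in human HEK293T cells. The genes were chosen by the positions of those peaks, and their members are every peak that overlapped the gene's hg19 bounds on its own strand in the deposited peak lists. The bounds were chr17:7387685-7417933 for POLR2A, chr19:39936186-39967310 for SUPT5H, chr17:26989109-27029697 for SUPT6H and chr17:37617739-37721160 for CDK12, all on the plus strand. The 4 genes held 65 of the 210878 stranded entries of the replicate 1 list, 56 of the 65587 entries of the replicate 2 list and 16 of the 13758 pairs in the deposited list of shared peaks. Since these peaks chose the genes, their numbers and strengths are given as a description and were not tested.

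RNA polymerase II copies protein-coding genes. POLR2A codes for its largest subunit, RPB1, whose C-terminal domain is a long tail of a repeated heptapeptide that is phosphorylated as the enzyme moves from initiation into elongation. CDK12 is a cyclin K-dependent kinase that phosphorylates this tail. SUPT5H, or SPT5, is the larger subunit of DSIF, a factor that holds the polymerase near the promoter and then travels with it, and SUPT6H, or SPT6, is a histone chaperone that binds the elongating polymerase. RBM45 is an RNA-binding protein with RNA recognition motifs, known to favour RNA that contains GAC.

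The cells were WT HEK293T, an established human embryonic kidney line, transduced with a lentivirus for FLAG-HA-tagged human RBM45 and crosslinked by ultraviolet light (254 nm, 300 mJ/cm2) before the tagged protein was pulled down with an HA antibody. The results come from 2 WT CLIP replicates, so every value below is from cells that carried the tagged transgene, and nothing in the labels tells whether these came from separate cultures. The size-matched input libraries and the METTL3 knockout libraries were not analysed here. The lists give no read counts, so the depth behind each peak is unknown, and the sources used here do not say what control the caller had. A peak is therefore a place of CLIP signal over the caller's background and is not by itself a binding site. Coordinates follow hg19 as a genome browser shows it, and exons and introns were not assigned to peaks, since the annotation at hand is of another build.

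The repeats of the C-terminal domain are shown first, because the last exon of POLR2A codes for them and the widest peak of the replicate 2 list lay at that end of the gene. GENCODE release 29 gives the transcript POLR2A-209 a length of 6751 bases in 29 exons, and its last exon is 1596 bases long. The exon held 21 units of 21 bases that spell a tyrosine codon followed by codons of the consensus heptapeptide, and 15 of them followed each other without a break over 315 bases. Only units that code exactly for the consensus were counted, so repeats that depart from it are left out and the whole domain is not covered. Capitals mark the tyrosine codon that opens each unit. The first 6 units of that unbroken run are printed from the transcript (chromosome 17, plus strand).
unit 1: TATagtcccacatcacccagc
unit 2: TATtcgccaacgtcacccagc
unit 3: TACtcaccgacctctcccagc
unit 4: TACtcacccacctctcccagc
unit 5: TACtcgcccacctctcccagc
unit 6: TACtcgcccacctctcccagc

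Units 5 and 6 are identical, and the run of 15 units held 14 distinct sequences. Any 2 units of the run shared between 13 and 21 of their 21 bases. Along the whole last exon, 55.8% of bases matched the base 21 positions further on, against 29.0% in the other exons of the same transcript. At a distance of 20 bases the match in the last exon was 28.4%, so the repeat stands out at its own period. The last exons of the other genes had no such period: 26.2% of bases matched at 21 positions in CDK12-202, 28.7% in SUPT5H-215 and 26.6% in SUPT6H-201. None of those 3 transcripts held a unit of this kind. The file lists POLR2A-209 as a processed transcript and tags its gene as touched by an error of the reference genome, so the printed units are those of the reference and were not read from these cells.

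**Figure D1:**
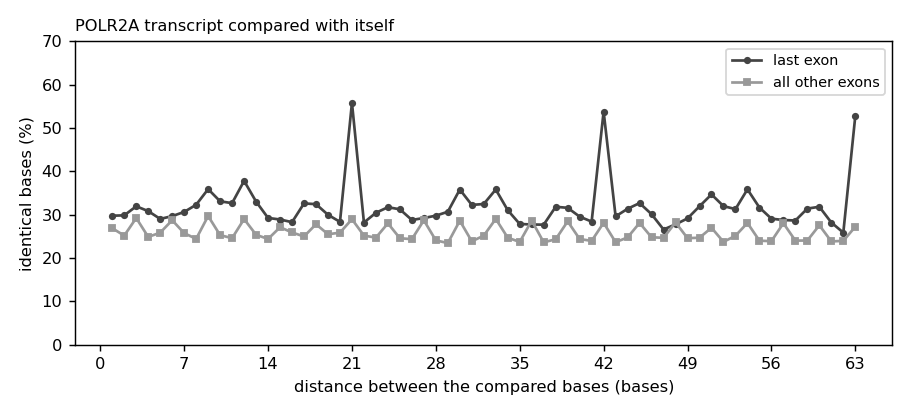
Share of identical bases (%) when the POLR2A-209 transcript is compared with itself at a distance of 1 to 63 bases, for the last exon and for all other exons. The last exon stands out at 21 bases with 55.8%, and again at the multiples 42 and 63, while the other exons stay near 29.0% at 21 bases.

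The trinucleotide GAC was searched on the transcript strand. In POLR2A-209 it occurred 8 times in the last exon, or 5.01 times per kb, and 101 times in the other exons, or 19.6 times per kb. In SUPT5H-215, SUPT6H-201 and CDK12-202 the last exon held 7.23, 15.2 and 9.47 per kb and the other exons 21.5, 20.1 and 17.7 per kb. The 567 bases from the first to the last of the 21 consensus units held 4 copies, which is not a count over the whole C-terminal domain. Of all 117590 windows of 567 bases along the longest protein-coding transcript of each gene, 99.6% held GAC and 23.1% held 4 copies or fewer. These are counts of letters in annotated transcripts and say nothing of which bases RBM45 contacted.

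By raw counts and shared pairs, with no allowance for gene length, the 4 genes fell into 2 groups. POLR2A and CDK12 carried many peaks in both replicates and shared peaks between them, while SUPT5H and SUPT6H carried few replicate 2 peaks and no deposited shared pair. The numbers of peaks in replicate 1 and replicate 2 were 19 and 17 for POLR2A, 25 and 33 for CDK12, 14 and 3 for SUPT5H, and 7 and 3 for SUPT6H. The ratio of replicate 1 to replicate 2 peaks was 0.758 in CDK12, 1.12 in POLR2A, 2.33 in SUPT6H and 4.67 in SUPT5H, against 3.22 over the whole lists. CDK12 was thus the only one of the 4 genes with more peaks in the shorter replicate 2 list. None of the 4 genes carried a peak on the opposite strand in either list.

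Per length, POLR2A was the most densely covered of the 4 genes. It held 0.595 ± 0.0468 peaks per kb of its 30.2 kb, CDK12 0.280 ± 0.0547 of its 103.4 kb, SUPT5H 0.273 ± 0.250 of its 31.1 kb and SUPT6H 0.123 ± 0.0697 of its 40.6 kb (mean ± SD, n = 2 in each). The single values of POLR2A were 0.628 in replicate 1 and 0.562 in replicate 2, and both lay above all values of the other genes. SUPT5H had 0.450 and 0.0964, CDK12 had 0.242 and 0.319, and SUPT6H had 0.172 and 0.0739. Within each list SUPT5H lay above SUPT6H, while it lay above CDK12 in replicate 1 and below it in replicate 2. These densities depend on the bounds used. The final 31.7 kb of the CDK12 bounds held no peak in either list. SUPT5H is 40515 bases long in GENCODE release 29 and 31125 bases between the hg19 bounds.

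**Figure D2:**
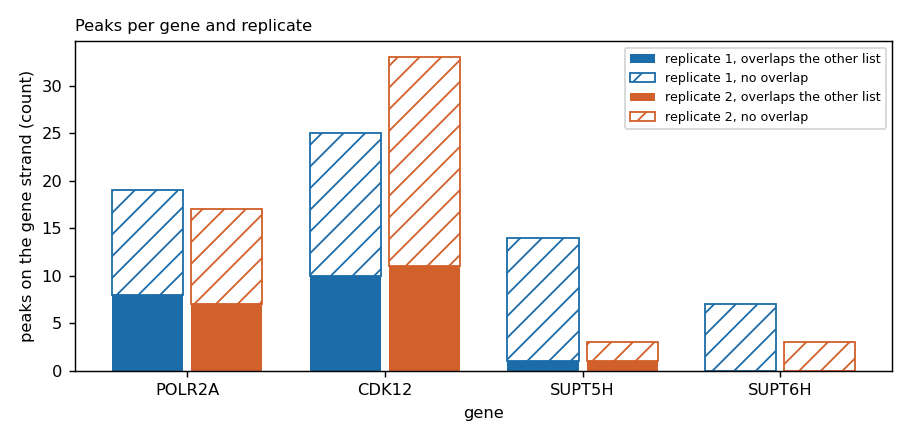
Peaks on the gene strand (count) in each WT CLIP replicate for the 4 genes, divided into peaks that overlap a peak of the other list by at least 1 base and peaks that do not. POLR2A and CDK12 have 7 to 11 overlapping peaks in a list, SUPT5H has 1 and SUPT6H has 0.

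A peak was counted as overlapping the other replicate when they had 1 or more bases of the gene strand in common. In POLR2A, 8 of 19 replicate 1 peaks overlapped replicate 2, or 42.1% (95% exact Clopper-Pearson interval 20.3 to 66.5), while 8.88% of all replicate 1 entries did. In CDK12, 10 of 25 did so, or 40.0% (21.1 to 61.3). Seen from replicate 2, 7 of 17 POLR2A peaks overlapped (41.2%, 18.4 to 67.1) and 11 of 33 CDK12 peaks (33.3%, 18.0 to 51.8), while 28.8% of all replicate 2 entries did. The intervals cover counting error only and treat neighbouring peaks of a gene as independent. In POLR2A, 2 of the replicate 1 peaks overlapped the same replicate 2 peak. Since these peaks chose the genes, the intervals are no test against the whole lists. SUPT5H had 1 overlap, of 6 bases, which was 7.14% of its 14 replicate 1 peaks and 33.3% of its 3 replicate 2 peaks, so both shares were near those of the whole lists. SUPT6H had 0 of 7 and 0 of 3, and its nearest peaks of the 2 lists lay 1323 bases apart.

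The deposited shared pairs require the overlap to cover at least 50% of the replicate 1 peak. POLR2A held 7 such pairs and CDK12 held 9. Over the whole lists, 6.52% of replicate 1 entries and 20.9% of replicate 2 entries belonged to a pair. Among fixed windows of the length of POLR2A on 1 strand that held any peak, 0.558% held 7 or more pairs, and among windows of the length of CDK12, 1.25% held 9 or more. A shared pair was present in 16.7% of windows of the length of SUPT5H and in 18.5% of windows of the length of SUPT6H, so most such windows held none. The windows are stretches of the genome and not genes, and most hold other numbers of peaks than these 2 genes. Windows that held at least as many peaks as POLR2A in both lists numbered 247, and their median was 8 pairs. For CDK12 there were 158 such windows with a median of 13 pairs. These windows hold at least as many peaks as the gene, so the medians are no comparison at equal peak number. Of the 2545 windows with at least as many peaks as SUPT5H in both lists, 20.7% had no pair. Of the 5807 windows with at least as many as SUPT6H, 30.8% had none. These shares too include windows with more peaks than the gene.

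**Figure D3:**
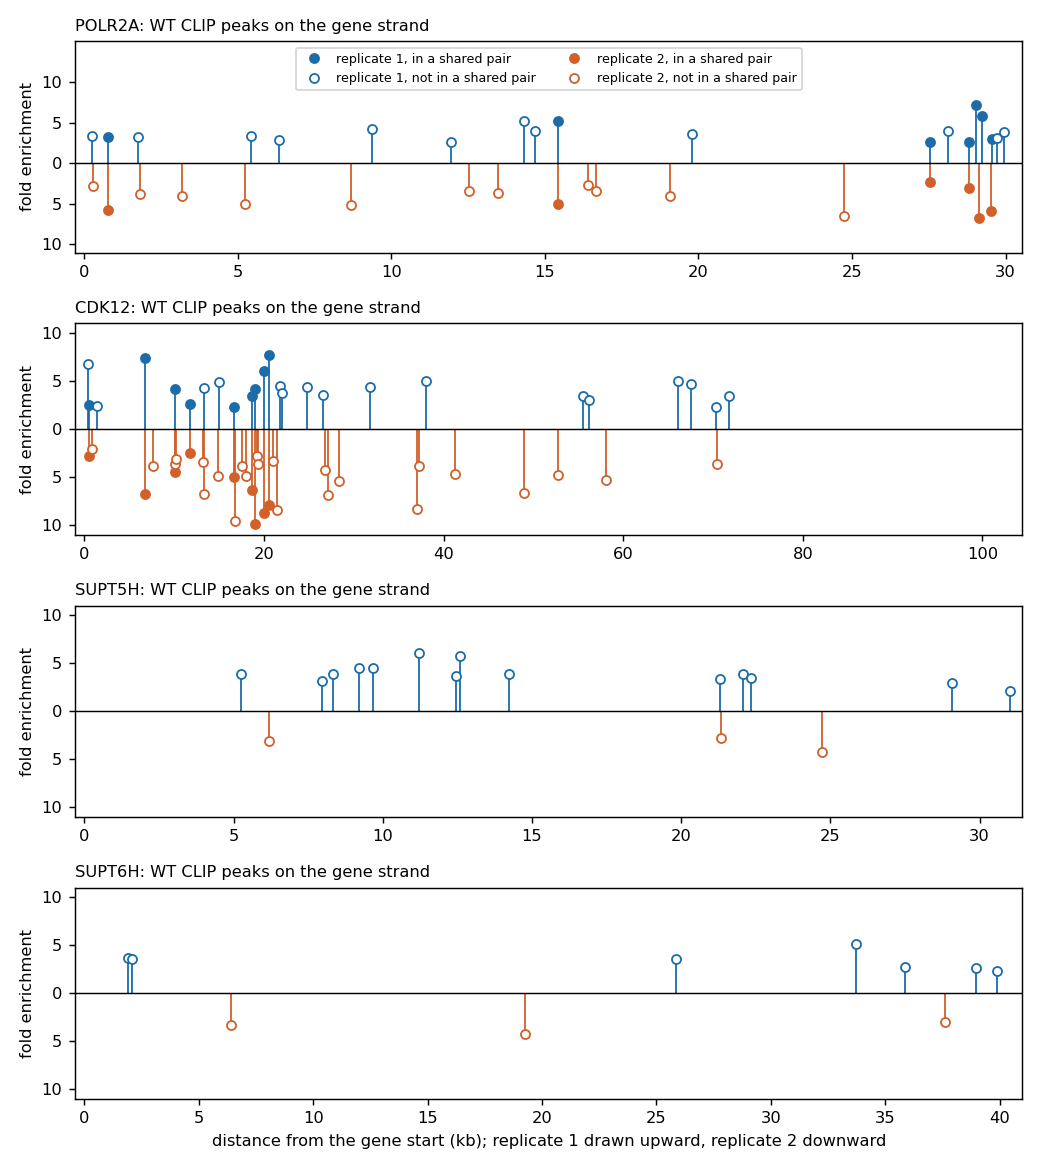
Fold enrichment of every WT CLIP peak on the gene strand against distance from the gene start (kb), with replicate 1 drawn upward, replicate 2 downward and peaks of deposited shared pairs filled. Shared pairs of POLR2A gather at its end, with 5 of 7 in the last 10%, and all 9 of CDK12 lie in the first 20.7 kb, while SUPT5H and SUPT6H have none.

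The shared pairs of POLR2A lay mostly at the 3′ end of the gene. The last 10% of its length, 3.02 kb, held 8 of 19 replicate 1 peaks (42.1%) and 4 of 17 replicate 2 peaks (23.5%). In SUPT6H the same 10% held 2 of 7 (28.6%) and 1 of 3 (33.3%), so that share of peaks does not set POLR2A apart. In POLR2A the first 20% held 4 replicate 1 and 5 replicate 2 peaks. The last 10% held 5 of the 7 shared pairs. All 4 replicate 2 peaks there overlapped replicate 1, as did 5 of the 8 replicate 1 peaks. In the first 90% of the gene, 3 of 11 replicate 1 peaks (27.3%) and 3 of 13 replicate 2 peaks (23.1%) overlapped the other list. Over the whole lists 8.88% of replicate 1 and 28.8% of replicate 2 entries did.

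Most of the covered sequence of POLR2A lay in its last 2000 bases, a stretch chosen after the values were seen. Peaks there covered 763 bases in replicate 1 and 832 bases in replicate 2, which was 57.9% and 58.7% of all bases covered in the gene. The 2 lists covered 686 of these bases in common, 89.9% of the replicate 1 bases and 82.5% of the replicate 2 bases. Outside that stretch POLR2A had 13 and 14 peaks, with median widths of 33 and 33.5 bases and widths of at most 113 and 86 bases. Of the peaks in the stretch, 4 of 6 in replicate 1 and 3 of 3 in replicate 2 were at least 118 bases wide, and the other 2 replicate 1 peaks were 43 and 30 bases wide.

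**Figure D4:**
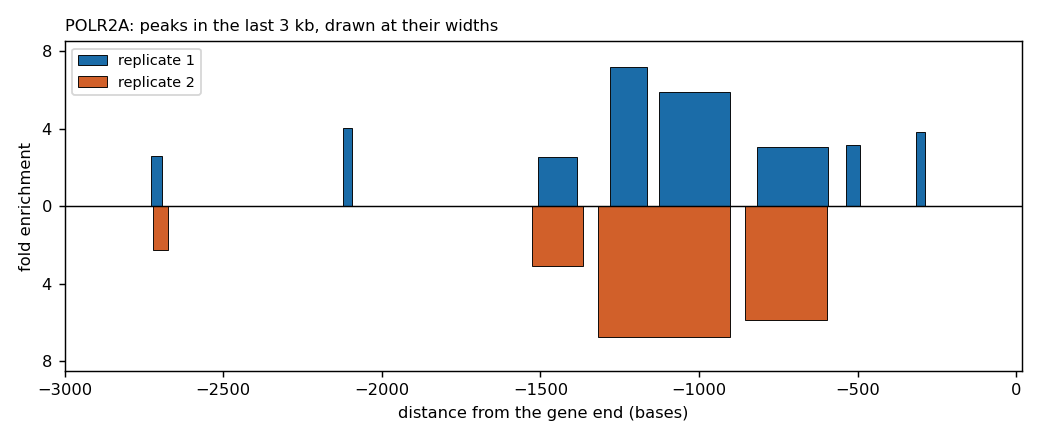
Peaks of POLR2A in the last 3 kb of the gene, each drawn at its width against distance from the gene end (bases) and at the height of its fold enrichment, replicate 1 upward and replicate 2 downward. A 414-base replicate 2 peak faces 2 replicate 1 peaks of 118 and 225 bases, and the next replicate 2 peak, 259 bases wide, faces a replicate 1 peak of 225 bases.

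The replicate 2 peak at chr17:7416617-7417030 was 414 bases wide and the widest of the 65587 entries of its list. Its fold enrichment was 6.75, above that of 95.9% of the list, and its −log10 p was 25.4, above 99.6% of the list. In replicate 1 it faced 2 peaks that were 37 bases apart. The first, chr17:7416652-7416769, had a fold of 7.16 and a −log10 p of 24.4, the highest values of POLR2A in that list. The second, chr17:7416807-7417031, was 225 bases wide with a fold of 5.87 and a −log10 p of 16.1. It ended 1 base beyond the replicate 2 peak. Both replicate 1 peaks form a deposited pair with the same replicate 2 peak, so the 7 pairs of POLR2A rest on 7 replicate 1 peaks and 6 replicate 2 peaks.

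The neighbouring pairs were also wide. At chr17:7417117-7417341 the replicate 1 peak was 225 bases wide and 3.03-fold, and its replicate 2 partner, chr17:7417080-7417338, was 259 bases wide and 5.89-fold. By width that partner ranked 6 in the replicate 2 list, and both 225-base peaks ranked 77 in the replicate 1 list. At chr17:7416426-7416547 a 122-base replicate 1 peak of 2.55-fold lay wholly inside a 159-base replicate 2 peak of 3.11-fold. The replicate 1 peaks of these 4 pairs began at most 1508 bases before the end of the gene, while the last exon in GENCODE release 29 is 1596 bases long. The gene is 30251 bases long there and 30249 bases between the hg19 bounds, and no position was carried from one build to the other.

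Away from its end, POLR2A had 2 shared pairs. The pair at chr17:7403100-7403129, in the middle of the gene, was 30 bases wide in both lists and shifted by 1 base, with a fold of 5.25 in replicate 1 and 4.97 in replicate 2. The pair at chr17:7388428-7388457, 743 bases after the gene start, had 3.21 in replicate 1 and 5.72 in replicate 2. The weakest pair of the gene, chr17:7415207-7415240, had 2.57 and 2.26. One replicate 1 peak near the start, 113 bases wide at chr17:7387875-7387987, covered a whole 45-base replicate 2 peak, yet it is in no deposited pair, because 45 bases are under 50% of its width. The strongest POLR2A peak without a partner was a replicate 2 peak of 6.55-fold at chr17:7412403-7412433, with no replicate 1 peak within 2773 bases.

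CDK12 peaks and pairs gathered at the start of the gene. The first 20% of its length, 20.7 kb, held 13 of 25 replicate 1 peaks (52.0%) and 21 of 33 replicate 2 peaks (63.6%). Every overlap of CDK12 between the replicates lay there: 10 of the 13 replicate 1 peaks and 11 of the 21 replicate 2 peaks overlapped the other list. The cut at 20% was not planned for this gene and falls just beyond its last shared pair, at 19.9% of the length. The contrast between the 2 stretches therefore depends on where the cut was placed and was not tested. In the remaining 82.7 kb, 12 replicate 1 and 12 replicate 2 peaks had 0 overlaps. Over the whole lists, 8.88% of replicate 1 and 28.8% of replicate 2 entries overlapped, so 0 of 12 is little evidence in replicate 1. Of the 12 replicate 2 peaks there, 6 were above 5-fold. The last peak of either list ended 71.7 kb after the gene start, and the final 31.7 kb of the bounds held none. In GENCODE release 29 the longest protein-coding transcript by sequence, CDK12-202, spans 73.1 kb of genome.

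The 9 CDK12 pairs ran over 20.1 kb. The pair with the highest lower fold of its 2 peaks was chr17:37638282-37638330, with 7.73 in replicate 1 and 7.96 in replicate 2. Its peaks were 49 bases wide in both lists and offset by 1 base, and 98.7% of all shared pairs had a smaller lower fold. The pair at chr17:37624476-37624508 had 7.43 and 6.82, and the 2 peaks began at the same base. The pair at chr17:37637734-37637763 had 6.08 in replicate 1 and 8.71 in replicate 2. The pair at chr17:37627781-37627916 had 4.18 and 4.49, and its replicate 1 peak of 136 bases was the widest of CDK12. The pair at chr17:37636711-37636740 had 4.16 in replicate 1 and 9.88 in replicate 2, and 9.88 was the highest fold of any peak in the 4 genes. In all 9 pairs the midpoints of the 2 peaks were at most 12.5 bases apart.

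**Figure D5:**
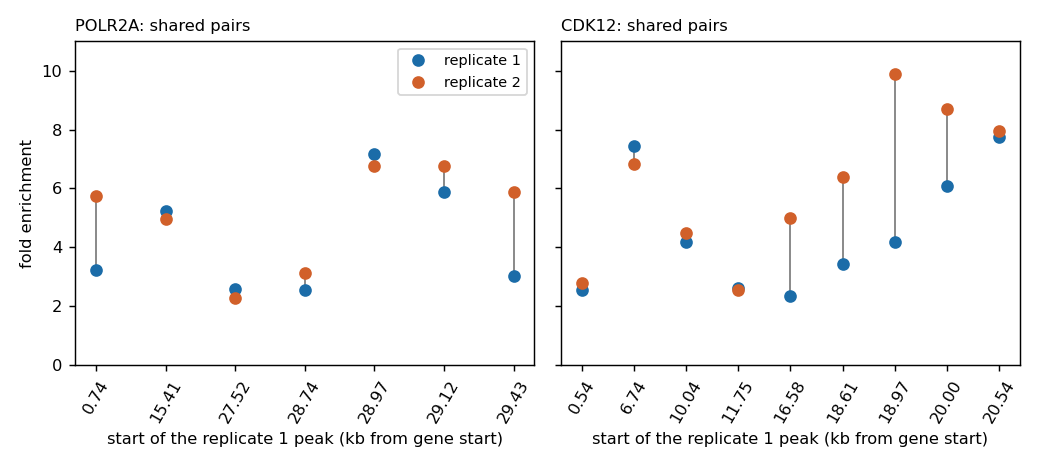
Fold enrichment of both peaks of each deposited shared pair of POLR2A (7 pairs) and CDK12 (9 pairs), in order along the gene, labelled by the start of the replicate 1 peak (kb from the gene start). In 14 of the 16 pairs the values lie within a factor of 2, and the 2 wider gaps are in CDK12.

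Within pairs the fold values of the 2 lists were similar in most cases. They lay within a factor of 2 in 7 of 7 POLR2A pairs and 7 of 9 CDK12 pairs, and in 12455 of all 13758 pairs. The replicate 2 value was the higher one in 4 of 7 POLR2A pairs and 7 of 9 CDK12 pairs, and in 7330 of all pairs. The median lower fold was 3.21 in POLR2A and 4.16 in CDK12, and 3.56 over all pairs. Shared pairs in these genes were therefore not uniformly strong: the lower fold ran between 2.26 and 6.75 in POLR2A and between 2.33 and 7.73 in CDK12.

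Strong peaks of CDK12 did not always have a partner. Lacking one was the usual state: over the whole lists, at any fold, 8.88% of replicate 1 and 28.8% of replicate 2 entries overlapped the other list. The replicate 2 peak at chr17:37634456-37634490 reached 9.56-fold, above 99.4% of its list, and the nearest replicate 1 peak was 63 bases away. The replicate 2 peak at chr17:37639173-37639223 had 8.39-fold, with the nearest replicate 1 peak 262 bases away. In replicate 1, the peak at chr17:37618086-37618148, 347 bases after the gene start, was 6.76-fold and lay 126 bases from the nearest replicate 2 peak. These 3 peaks were picked after their values were seen. The widest replicate 2 peak of CDK12, 91 bases at chr17:37638738-37638828, was only 3.32-fold and had no partner. Over the gene, 13 of 33 replicate 2 peaks were above 5-fold, against 18.0% of the whole list, and 5 of 25 replicate 1 peaks, against 9.16% of the whole list. In POLR2A, 6 of 17 replicate 2 peaks and 4 of 19 replicate 1 peaks were above 5-fold.

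SUPT5H had 14 peaks in replicate 1 and 3 in replicate 2. Its 14 replicate 1 peaks ran between 2.05-fold and 6.01-fold with a median of 3.87. The strongest lay at chr19:39947366-39947413 with 6.01-fold, and the widest, 108 bases at chr19:39948715-39948822, had 5.72-fold and the highest −log10 p of the gene, 9.63. The nearest replicate 2 peaks to these 2 were 4969 and 6318 bases away. The 3 replicate 2 peaks, each 30 bases wide, had 3.08, 2.82 and 4.26-fold in order along the gene. The highest was at chr19:39960884-39960913. The single overlap joined the replicate 1 peak chr19:39957471-39957516 of 3.36-fold with the replicate 2 peak chr19:39957511-39957540 of 2.82-fold. The first 5.23 kb of the SUPT5H bounds held no peak in either list, but the gene in GENCODE release 29 is longer than these bounds.

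SUPT6H had the fewest peaks in replicate 1, and as many as SUPT5H in replicate 2. The strongest SUPT6H peak was the weakest maximum of the 4 genes in each list. It had 5.13-fold in replicate 1 and 4.23-fold in replicate 2, where SUPT5H reached a near-equal 4.26-fold. The 7 SUPT6H peaks of replicate 1 ran between 2.34-fold and 5.13-fold with a median of 3.51, and the strongest was at chr17:27022805-27022837. The widest, 62 bases, lay at chr17:27024948-27025009 with 2.76-fold. The 3 replicate 2 peaks had 3.32, 4.23 and 2.98-fold in order along the gene, all 30 bases wide, and the strongest was at chr17:27008333-27008362. The weakest of them, with a −log10 p of 2.31, was just inside the p threshold of 0.005 that the peak names carry. Within 100 bases of the other list lay 0 of 7 replicate 1 and 0 of 3 replicate 2 peaks of SUPT6H, and 12.3% of all replicate 1 and 37.5% of all replicate 2 entries. With so few peaks, 0 is not a result about SUPT6H. In POLR2A, 10 of 19 replicate 1 and 8 of 17 replicate 2 peaks lay that close, and in CDK12 11 of 25 and 15 of 33.

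On the gene strand, the nearest peak outside any of the bounds was 5.01 kb away. The first POLR2A peak inside lay 190 bases after the start in replicate 1 (3.34-fold) and the nearest outside was 37.0 kb upstream (2.34-fold). At the other end the last inside was 287 bases before the end (3.81-fold) and the next 43.4 kb downstream (4.68-fold). The nearest outside peaks of replicate 2 were 43.3 kb and 48.6 kb from the gene. For CDK12 the nearest outside peaks were at least 69.1 kb away in both lists, and for SUPT6H at least 17.9 kb. SUPT5H had the closest one, a replicate 1 peak of 3.10-fold 5.01 kb downstream, while its own last peak, 2.05-fold, lay 100 bases before the end. Where the longer SUPT5H gene of GENCODE release 29 begins and ends in hg19 was not determined.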

How the data were processed

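Per the labels' protocols, CLIP libraries were made by an iCLIP protocol. The submitters' processing notes name deepTools 3.2.1, HOMER 4.11.1, Novoalign 3.09.00, bedtools 2.25.0, MACS2 2.1.1.20160309 and the build hg19, with no role or order. The deposited lists, called per library by their peak names, give per peak the fold over background (a linear ratio), the −log10 p (at a p threshold of 0.005 in the peak names) and a score of 10 times the −log10 p. These are the authors' values, used within a list. At this threshold weak peaks are kept. Rows that repeat a peak on 1 strand were merged into 1 entry (467329 rows in replicate 1 and 148958 in replicate 2). The list of shared peaks, kept under the first WT input's record, held exactly the same-strand pairs covering at least 50% of the replicate 1 peak. All 8 columns of the authors' read count table carry names that match no sample label and were not used, so the planned tests of knockout against WT CLIP and of CLIP against input were not run. Other pathway genes were not analysed here, since their hg19 positions were not at hand.

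Members and lists were chosen with earlier results of these data known. Peaks named are, per gene, the 5 pairs with the highest lower fold and the widest and strongest peak of each replicate; others were chosen after their values were seen. Windows were a fixed grid of each gene's length, with peaks placed by midpoint. Overlap counting was tested on simulated data and against bedtools. Tools were matplotlib 3.10.9, scipy 1.17.1, pandas 2.3.3, numpy 2.4.6 and Python 3.11.15.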

Additional observations from a re-analysis of the deposited data

How the results depend on the processing

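Of 51 values recomputed under other settings, 39 stayed within 1.5 times the count, the interval or 1 SD, 12 moved and 0 reversed. Many of the 39 could not have moved, so their number is no measure of stability. Ignoring the strand could change nothing, since no gene had a peak on the opposite strand. Keeping repeated rows could not move POLR2A or SUPT6H, whose peaks are each listed 1 time. Stricter rules could not lower values that were already 0. With 2 replicates, leaving 1 out cannot move a mean by 1 SD, so those 16 values are given as ranges and say nothing of stability. With at least 1 shared base, SUPT5H gained 1 shared peak, against 0 in the deposited pairs. With a −log10 p of at least 5, shared peaks of CDK12 fell to 5, and mean peaks per kb were 0.397 in POLR2A, 0.184 in CDK12, 0.0803 in SUPT5H and 0.0123 in SUPT6H, since fewer peaks pass. The SUPT5H value was within 1 SD only because its SD is nearly as large as its mean of 0.273. The matched share of SUPT5H was 0 in both lists at that threshold, which both overlapping peaks miss (−log10 p of 3.81 in replicate 1 and 2.96 in replicate 2), and 0 with 50% of both peaks, since the overlap is 6 bases long. Repeated rows kept gave 1.09 per kb in SUPT5H and 0.561 in CDK12. The last 20% of SUPT6H held 45.2% of peaks, against 31.0% in the last 10%, which it contains. SUPT6H had no replicate 2 peak at the stricter threshold, so that share has no value. Without replicate 1 or replicate 2, mean peaks per kb ran between 0.562 and 0.628 in POLR2A, 0.0964 and 0.450 in SUPT5H, 0.0739 and 0.172 in SUPT6H and 0.242 and 0.319 in CDK12, so leaving out either replicate moves SUPT5H by over 1.5 times, and leaving out replicate 1 does so for SUPT6H. The alternatives on read counts were not run. Without one replicate, the share of peaks in the last 10% ran between 23.5% and 42.1% in POLR2A. No paired analysis was possible because no result comes from a test, and the columns of read counts could not be tied to samples.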

Other observations

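The rows of the deposited lists repeat by gene: each POLR2A and SUPT6H peak is listed 1 time, each CDK12 peak 2 times and each SUPT5H peak 4 times, in both replicates. Over the whole lists 48.4% of replicate 1 entries and 46.5% of replicate 2 entries are listed 1 time.

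Peak values were coarse. Of the 65 member peaks of replicate 1, 61 shared both their fold and their −log10 p, to the last digit, with at least 1 other entry of the list, and 50 of the 56 in replicate 2 did, against 97.4% and 93.5% of the whole lists. The median number of entries with the same 2 values was 14 for POLR2A peaks, 119 for CDK12, 218 for SUPT5H and 103 for SUPT6H in replicate 1, and 8, 11, 88 and 579 in replicate 2, so the order of the genes differs between the lists.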
